A study of Mus musculus with 6 samples.

Results

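The genes described here carry glucose to its oxidation: 40 genes for the transport of glucose and lactate, the enzymes of glycolysis, the pyruvate dehydrogenase complex and the tricarboxylic acid cycle. They were chosen by symbol from a table of 35406 gene rows, of which 23479 had the test status OK. All 40 symbols were present with 1 row each, and all 40 rows had that status. RNA was sequenced from the nucleus accumbens, the ventral part of the striatum, of male C57BL/6 mice aged 11 weeks. The cocaine group had received repeated intraperitoneal injections of cocaine at 20 mg/kg for 1 week, the saline group repeated intraperitoneal saline for 1 week, and the tissue represents 24 h of withdrawal. Saline and cocaine were each sampled as 3 pools, every one of them made from both hemispheres of 5 mice, which comes to 15 mice a group. All mice of a cage received the same injection, per the labels, so cage and treatment cannot be told apart.

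Neurons meet most of their energy need by breaking glucose down to pyruvate in the cytosol and oxidising the pyruvate in mitochondria. The pyruvate dehydrogenase complex joins the 2 pathways by turning pyruvate into acetyl-CoA, and its kinases switch it off by phosphorylation. Glycolysis is known to be active in astrocytes, from which lactate can pass to neurons through monocarboxylate transporters.

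The deposited table held 1 value per gene and group, in FPKM (fragment counts scaled to transcript length and library size), and no value per pool. FPKM values are scaled to transcript length, so levels of different genes may be set side by side. Genes with near-identical copies elsewhere, named below, are an exception, since their levels are uncertain. The error printed with a log2 ratio is the size of that ratio over the size of the authors' test statistic, called the implied error here, and it need not hold the spread between pools. A gene is called here where the authors' q was under 0.05. The numbers of fragments were not given, so the depth is unknown. In bulk tissue, fewer cells of a type and less RNA per cell cannot be told apart.

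The promoters of 4 genes that were called are shown as examples from entry of glucose (Slc2a1), glycolysis (Pgam1) and the pyruvate dehydrogenase step (Pdhb and Pdk2), the last with the highest and the lowest called log2 ratio. Calls also fell among the cycle enzymes, whose promoters are not printed. Each is a RefSeq sequence of the build GRCm38.p6, 5′ to 3′ along the gene, with 250 bases before and 50 bases after the start. That of Slc2a1 lies at chr4:119108495-119108794 on the plus strand, that of Pgam1 at chr19:41911621-41911920 on the plus strand, that of Pdhb at chr14:8172943-8173242 on the minus strand and that of Pdk2 at chr11:95041322-95041621 on the minus strand. Capitals mark each match on either strand to ACGTG or GCGTG, the core letters of the hypoxia response element to which the HIF transcription factors bind.
Slc2a1: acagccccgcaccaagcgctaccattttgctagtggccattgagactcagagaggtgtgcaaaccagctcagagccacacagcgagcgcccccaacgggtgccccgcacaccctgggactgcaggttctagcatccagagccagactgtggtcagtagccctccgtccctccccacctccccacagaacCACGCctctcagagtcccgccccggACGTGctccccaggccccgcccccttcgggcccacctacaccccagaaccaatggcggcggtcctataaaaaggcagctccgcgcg
Pgam1: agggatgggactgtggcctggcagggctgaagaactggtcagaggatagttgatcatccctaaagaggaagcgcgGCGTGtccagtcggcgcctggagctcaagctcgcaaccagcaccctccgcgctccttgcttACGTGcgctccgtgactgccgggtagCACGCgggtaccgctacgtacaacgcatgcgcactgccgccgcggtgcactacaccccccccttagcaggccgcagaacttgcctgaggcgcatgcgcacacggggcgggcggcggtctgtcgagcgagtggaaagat
Pdhb: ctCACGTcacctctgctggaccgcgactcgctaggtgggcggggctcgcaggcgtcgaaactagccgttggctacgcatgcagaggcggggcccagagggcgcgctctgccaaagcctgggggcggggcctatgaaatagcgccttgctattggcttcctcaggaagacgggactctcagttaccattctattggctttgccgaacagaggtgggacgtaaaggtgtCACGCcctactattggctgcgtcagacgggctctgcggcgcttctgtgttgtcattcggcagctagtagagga
Pdk2: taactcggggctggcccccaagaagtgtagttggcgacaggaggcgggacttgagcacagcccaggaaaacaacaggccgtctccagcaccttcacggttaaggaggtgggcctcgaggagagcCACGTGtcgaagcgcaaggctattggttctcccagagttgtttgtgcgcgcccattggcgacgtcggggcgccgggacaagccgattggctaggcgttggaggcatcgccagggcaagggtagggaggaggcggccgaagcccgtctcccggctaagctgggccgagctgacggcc

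A promoter was found for 37 of the 40 genes, and where a gene had several the one listed at the top was used. These core letters were present in 24 of the 37 promoters (64.9%) and in 11836 of all 27025 promoters of the same length (43.8%). Of the 15 glycolysis enzymes 10 had a match, and of 14 enzymes of the cycle 8 had one. Of the 9 called genes 8 had a match, Dld being the one without. Whether matches were tied to the calls was not tested. The letters AAGGTCA, a half-site of nuclear receptors such as the oestrogen-related receptors, were present in 2 of the 37 promoters, those of Eno1 and Tpi1, and in 4.66% of all promoters. The matches describe these letters in these windows only.

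In the comparison of cocaine with saline, 9 of the 40 genes passed the threshold (22.5%), with 7 that rose and 2 that fell. The glucose transporter Slc2a1, the glycolytic enzyme Pgam1, the pyruvate dehydrogenase subunits Pdhb and Dld and the cycle enzymes Suclg1, Fh1 and Mdh1 rose by 1.17-fold to 1.5-fold. The pyruvate dehydrogenase kinase Pdk2 and the cycle enzyme Ogdh fell, by 1.38-fold and 1.19-fold. Over all rows with status OK, 11.9% were called, with 6.1% higher and 5.76% lower. That share grows with the level: among rows with a mean of at least 10 FPKM it was 21.2%, and 36 of the 40 genes reached that level, of which 25% were called. The count of calls was thus near the background of genes of such levels. For the higher calls the shares were 19.4% of the 36 genes and 11.3% of all rows at that level, and for the lower calls 5.56% and 9.95%.

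**Figure D1:**
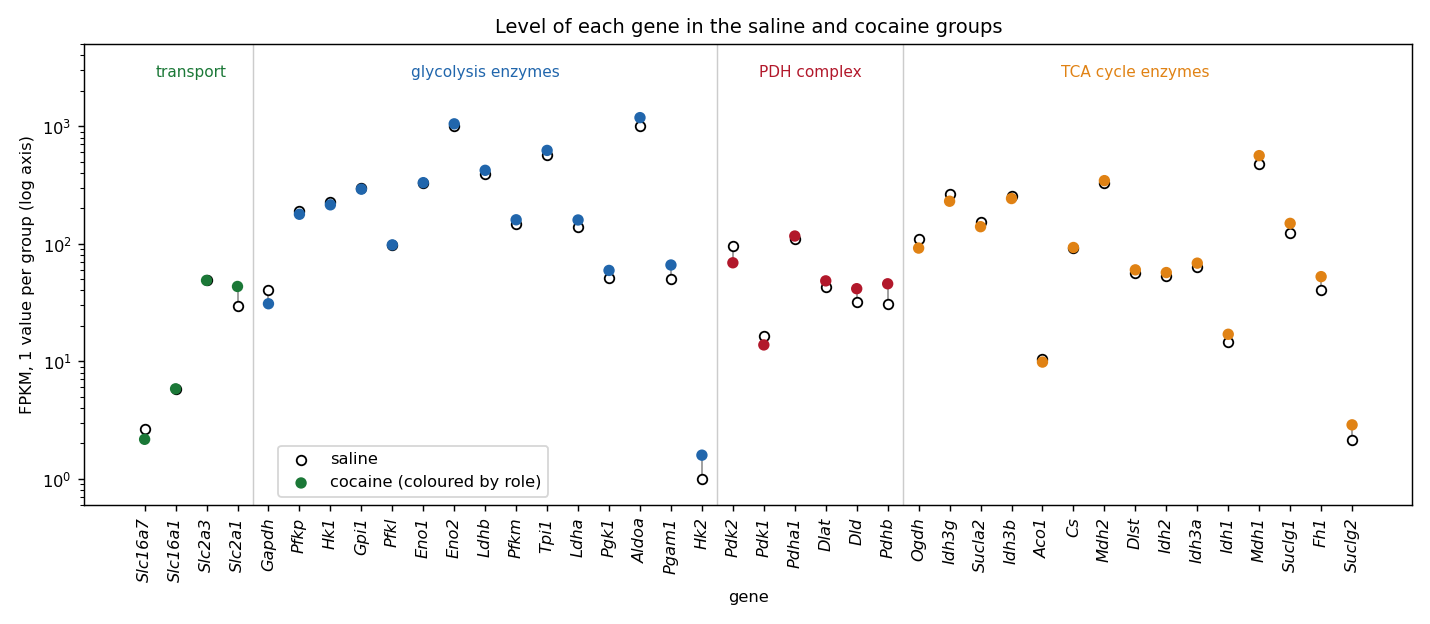
FPKM in the saline group (open circles) and the cocaine group (filled circles, coloured by role) for each of the 40 genes, on a log axis, 1 value per group. Levels run from about 1 FPKM for Hk2 to over 1000 FPKM for Aldoa, and the saline and cocaine values of a gene lie close together beside that range.

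The members of each role did not move as a block. Over all 40 genes 26 ratios were above 0 and 14 below, with a median log2 ratio of 0.09, beside 0.04 over all rows with a mean of at least 10 FPKM and 0.03 over all rows above 0 in both groups. The 15 glycolysis enzymes had a median log2 ratio of 0.12 and 1 call (6.67%). The 15 enzymes of the tricarboxylic acid cycle had a median log2 ratio of 0.08 and 4 calls (26.7%), 3 of them higher. The 6 genes of the pyruvate dehydrogenase complex and its kinases had a median of 0.14 and 3 calls, and the 4 transporters had a median of 0.00 and 1 call. Glycolysis enzymes were the more abundant as listed, with a median level of 183 FPKM against 91.9 FPKM for the cycle enzymes. Both lists include genes with near-identical copies, whose levels are uncertain. Among all rows with a mean of at least 100 FPKM, 31.3% were called. No test was made of the difference between the lists. The median implied error of a single gene was 0.10, which is not the error of a difference between 2 medians.

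**Figure D2:**
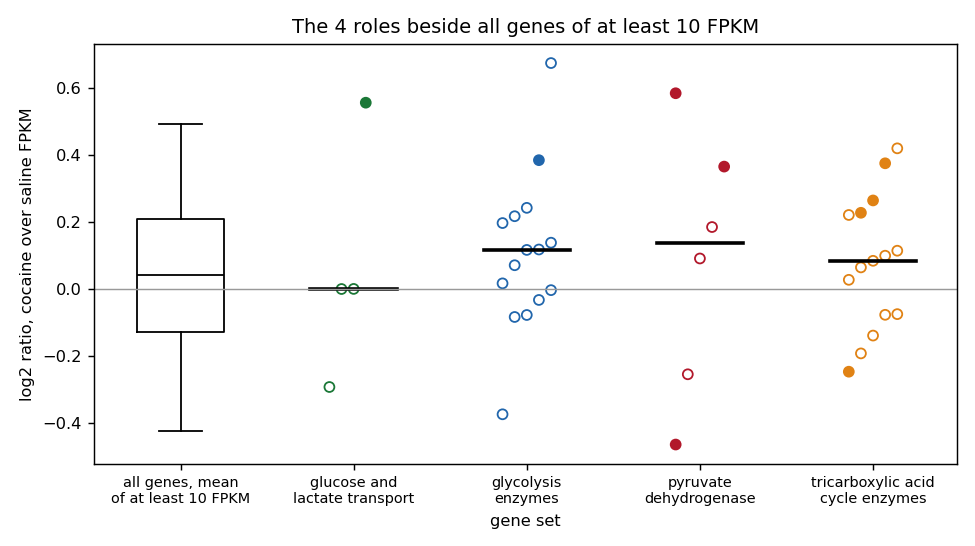
Log2 ratios of cocaine over saline FPKM for each gene by role (points, filled where the authors' q was under 0.05, black line at the median), beside a box of all genes with a mean of at least 10 FPKM (median, quartiles, whiskers at percentiles 5 and 95). The medians of glycolysis (0.12) and of the cycle (0.08) both lie between the quartiles of the box.

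Transport of glucose and lactate was changed in 1 of 4 genes. Slc2a1 encodes GLUT1, the glucose carrier of the blood-brain barrier and of glia, and rose from 29.4 FPKM to 43.3 FPKM, with a log2 ratio of 0.56 ± 0.11 (q = 3.99e-06 in the authors' deposited table). Slc2a3 encodes GLUT3, the glucose carrier of neurons, and stood at 48.7 FPKM in both groups, with a log2 ratio of 0.00 ± 0.10. The share of Slc2a3 in the summed FPKM of both carriers went from 62.3% to 53.0%. The difference between the log2 ratios of the carriers was -0.56 ± 0.14. The locus printed for Slc2a1 (chromosome 4, 118781316 to 118811406 in mm9 coordinates, as are all gene positions given here) held 3 further rows, which reached at most 4.43 FPKM (Mir1957 in saline).

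The lactate carriers were low and were not called. Slc16a1, which encodes MCT1, stood at 5.83 and 5.82 FPKM. Slc16a7, which encodes the neuronal carrier MCT2, stood at 2.65 and 2.17 FPKM, a log2 ratio of -0.29 ± 0.24. Since Slc2a1 is made by endothelium, the 10 endothelial and mural marker genes were set beside it: 2 were called, Slco1a4 higher (6.35 to 11.0 FPKM) and Pecam1 lower (9.46 to 6.18 FPKM). Of the 10 ratios 5 were above 0 and 5 below, with a median log2 ratio of 0.00. Their summed level went from 71.4 to 76.3 FPKM. The part of these cells in the result was not tested.

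Of the 15 glycolysis enzymes, Pgam1 alone was called. Phosphoglycerate mutase Pgam1 (chromosome 19, 41986361 to 41993154) rose from 50.5 FPKM to 65.9 FPKM, with a log2 ratio of 0.38 ± 0.11 (q = 0.0069 in the authors' deposited table). The processed pseudogene Pgam1-ps2 was identical to it over 765 aligned bases and stood at 86.0 and 89.8 FPKM, more than Pgam1 itself. With the FPKM of that copy added, the log2 ratio of Pgam1 was 0.19 in place of 0.38, and the value of Pgam1 is uncertain.

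The steps that commit glucose to glycolysis were led by Hk1, the hexokinase of brain, at 226 and 214 FPKM, with a log2 ratio of -0.08 ± 0.07. Hk2, the hexokinase of muscle and of many growing cells, was near 1 FPKM (0.995 and 1.59 FPKM), and its log2 ratio of 0.68 had an implied error of 0.40. Gpi1, the glucose phosphate isomerase, stood at 298 and 291 FPKM. The 3 phosphofructokinase genes, whose product sets the pace of glycolysis, were all expressed at like levels and none was called. Pfkp stood at 189 and 178 FPKM, Pfkm at 147 and 160 FPKM, and Pfkl at 97.9 and 97.7 FPKM.

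Below that step the listed levels ranged widely, with Aldoa and Eno2 the highest of the 15 enzymes. The listed rows of Gapdh, Pgk1 and Pgam1 lay under the hexokinase Hk1 and the phosphofructokinases. That order depends on near-identical gene copies, described for each gene in its own paragraph. With copies added, Pgk1 stood at 173 and 196 FPKM and Pgam1 at 136 and 156 FPKM, both above Pfkl. Gapdh with the 8 copies that had a row stood at 80.3 and 62.2 FPKM, under Pfkl. Its other copies could not be added, so its place in this order is uncertain. Aldolase gene Aldoa went from 999 to 1182 FPKM, but its implied error (0.55) exceeded its log2 ratio (0.24), so a change was not detectable. Enolase gene Eno2, the neuronal form, stood at 996 and 1046 FPKM and the widely expressed Eno1 at 327 and 331 FPKM. The share of Eno2 in both was 75.3% in saline and 76.0% in cocaine. Triose phosphate isomerase gene Tpi1 went from 565 to 622 FPKM (log2 ratio 0.14 ± 0.06) and missed the threshold at q = 0.0901 in the authors' deposited table. Phosphoglycerate kinase gene Pgk1 went from 50.9 to 59.2 FPKM without a call (q = 0.148 in the authors' deposited table).

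Gapdh, the glyceraldehyde phosphate dehydrogenase gene that is often used as a reference gene, was listed at 39.98 FPKM in saline and 30.8 FPKM in cocaine. Its log2 ratio of -0.37 ± 0.14 was the lowest of the 15 enzymes and was not called (q = 0.0733 in the authors' deposited table). The row stood below those of its neighbours in the pathway, such as Tpi1 and Eno1. Of other annotated genes 41 were near-identical to Gapdh (at least 95% identity over at least 500 bases), and 8 of these had a row with status OK. The copies Gm12033, Gm13394 and Gm5559, identical to 99.9%, each had 13.2 FPKM in saline and 10.2 to 10.3 FPKM in cocaine. With these 8 copies added, Gapdh went from 80.3 FPKM to 62.2 FPKM, with a log2 ratio of -0.37. The other copies had no row with status OK to add, and the level and ratio of Gapdh are uncertain.

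Lactate dehydrogenase, which interconverts pyruvate and lactate, is a tetramer of products of Ldha and Ldhb. Ldhb, the form that prevails in heart and in neurons, stood at 388 and 421 FPKM, and Ldha at 139 and 159 FPKM. Neither was called, and the share of Ldhb in both was 73.7% in saline and 72.6% in cocaine. The difference between their log2 ratios was -0.08 ± 0.14. The processed pseudogene Gm5514, with 98.0% identity to Ldhb, went from 128 to 180 FPKM and was itself called higher (q = 0.00285 in the authors' deposited table). With it added, the log2 ratio of Ldhb was 0.22 in place of 0.12. Near-identical copies with rows were also found for Gpi1 (Gm1840, 167 and 166 FPKM) and Suclg2 (Gm15163, 3.30 and 3.84 FPKM). Pgk1 had Gm5537 and Pgk1-rs7 (each 61.0 and 68.3 FPKM), and Pfkp had Pitrm1 (10.9 and 9.86 FPKM). Eno1 had 3 near-identical copies and Pdhb had 1, none of them with a row of status OK. How the authors' counting divided fragments between such copies is not given in the sources used here, and the levels of these genes are uncertain.

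**Figure D3:**
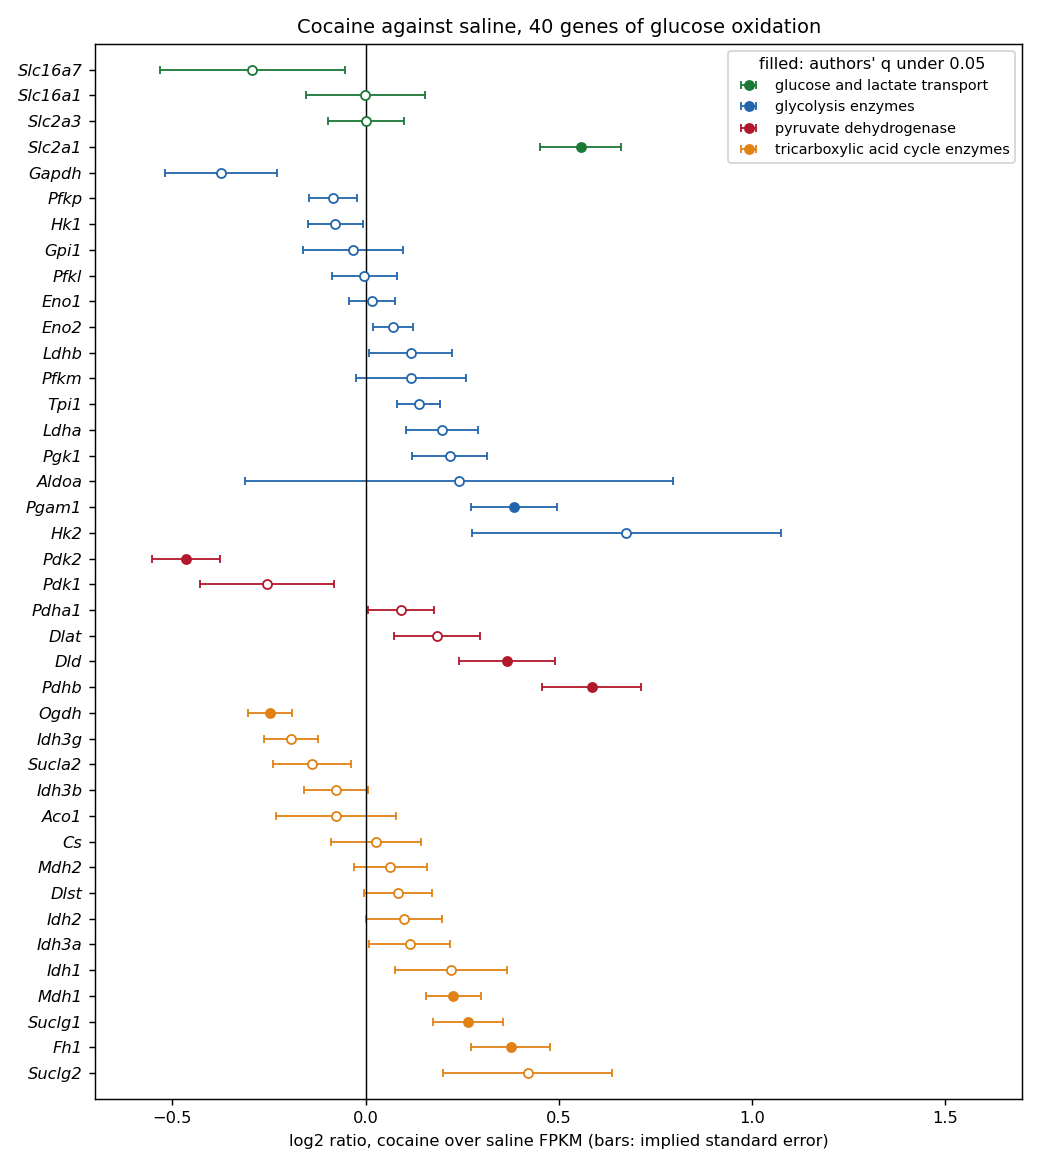
Log2 ratio of cocaine over saline FPKM for each of the 40 genes, ordered within its role, with bars of 1 implied standard error. Filled points were called at the authors' q under 0.05: 1 of 4 transporters, 1 of 15 glycolysis enzymes, 3 of 6 pyruvate dehydrogenase genes and 4 of 15 cycle enzymes.

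The pyruvate dehydrogenase step held the highest and the lowest called log2 ratio of the 40 genes. Pdhb encodes the beta chain of the E1 component and rose from 30.4 FPKM to 45.6 FPKM, with a log2 ratio of 0.58 ± 0.13 (chromosome 14, 8998505 to 9005506, q = 0.00013 in the authors' deposited table). Its partner chain Pdha1 stood at 109 and 116 FPKM and was not called, with a log2 ratio of 0.09 ± 0.09. The difference between the log2 ratios of Pdhb and Pdha1 was 0.49 ± 0.15. The processed pseudogene Gm6123 had 97.0% identity to Pdhb over 1079 aligned bases. It had no row with status OK and could not be added, so the value of Pdhb is uncertain. Dlat, the E2 component, went from 42.5 to 48.3 FPKM without a call (log2 ratio 0.19 ± 0.11). Dld, the E3 component that the complex shares with the oxoglutarate dehydrogenase complex, rose from 32.1 to 41.4 FPKM (log2 ratio 0.37 ± 0.12, chromosome 12, 32016429 to 32036302, q = 0.0308 in the authors' deposited table).

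Of the kinases that inhibit the complex, Pdk2 fell from 94.9 to 68.8 FPKM. Its log2 ratio was -0.46 ± 0.09 (chromosome 11, 94887572 to 94902668, q = 3.02e-06 in the authors' deposited table). Pdk1 went from 16.4 FPKM to 13.8 FPKM, with a log2 ratio of -0.26 ± 0.17, and was not called. The difference between the log2 ratios of Pdk2 and Pdk1 was -0.21 ± 0.19. Pdk2 shared its locus with Gm11513, which was below 0.2 FPKM in both groups.

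The entry steps of the cycle were not called. Citrate synthase gene Cs stood at 91.0 and 92.8 FPKM, a log2 ratio of 0.03 ± 0.12. Aco1 encodes the cytosolic aconitase, which also acts as an iron regulatory protein, and stood at 10.4 and 9.84 FPKM.

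The isocitrate dehydrogenases that depend on NAD are built from 3 subunits in mitochondria. Idh3a, the catalytic one, stood at 63.1 and 68.3 FPKM, and Idh3b at 255 and 242 FPKM. Idh3g went from 262 FPKM to 230 FPKM, with a log2 ratio of -0.19 ± 0.07, just outside the threshold at q = 0.0514 in the authors' deposited table. The log2 ratios of Idh3a and Idh3g differed by 0.31 ± 0.13. The enzymes that depend on NADP, cytosolic Idh1 (14.5 and 17.0 FPKM) and mitochondrial Idh2 (53.0 and 56.8 FPKM), were not called.

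The oxoglutarate dehydrogenase complex had members that went in opposite directions. Ogdh, its E1 component, fell from 108.9 FPKM to 91.7 FPKM, with a log2 ratio of -0.25 ± 0.06 (chromosome 11, 6191636 to 6256645, q = 0.000382 in the authors' deposited table). Dlst, its E2 component, stood at 56.5 and 59.9 FPKM and was not called (0.08 ± 0.09 on the log2 scale). Dld, its E3 component, rose as given above.

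Succinyl-CoA ligase pairs the chain of Suclg1 with either of 2 partners, that of Sucla2 for ADP or that of Suclg2 for GDP. Suclg1 rose from 124 FPKM to 149 FPKM, with a log2 ratio of 0.26 ± 0.09 (chromosome 6, 73198376 to 73226901, q = 0.0326 in the authors' deposited table). Sucla2 stood at 154 and 140 FPKM (log2 ratio -0.14 ± 0.10) and Suclg2 at 2.15 and 2.88 FPKM (log2 ratio 0.42 ± 0.22), and neither was called. The share of Sucla2 in both partners was 98.6% in saline and 98.0% in cocaine.

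At the end of the cycle, fumarase gene Fh1 rose from 40.4 FPKM to 52.4 FPKM, with a log2 ratio of 0.38 ± 0.10 (chromosome 1, 177530505 to 177592247, q = 0.00374 in the authors' deposited table). Malate dehydrogenase gene Mdh1 rose from 479 FPKM to 561 FPKM, with a log2 ratio of 0.23 ± 0.07 (chromosome 11, 21456790 to 21798992, q = 0.0136 in the authors' deposited table), and its locus also held Pgam1-ps1 at 27.6 and 29.0 FPKM. Mdh1 encodes the cytosolic form, which serves the malate-aspartate shuttle. The mitochondrial form Mdh2 stood at 329 and 344 FPKM and was not called, and the log2 ratios of Mdh2 and Mdh1 differed by -0.16 ± 0.12. Without the 3 cytosolic forms (Aco1, Idh1 and Mdh1), 12 enzymes of the mitochondrial cycle were left, of which Suclg1 and Fh1 were called higher and Ogdh lower, with a median log2 ratio of 0.07. Their summed level was 1539 FPKM in saline and 1529 FPKM in cocaine, beside 4513 and 4858 FPKM for the 15 glycolysis enzymes. The glycolysis sum rose by 7.64%, beside 7.59% for all rows with a mean of at least 100 FPKM. For all rows with status OK the rise was 5.16%. The glycolysis sum includes Aldoa (999 to 1182 FPKM), for which a change was not detectable. It also includes genes with near-identical copies, whose levels are uncertain.

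**Figure D4:**
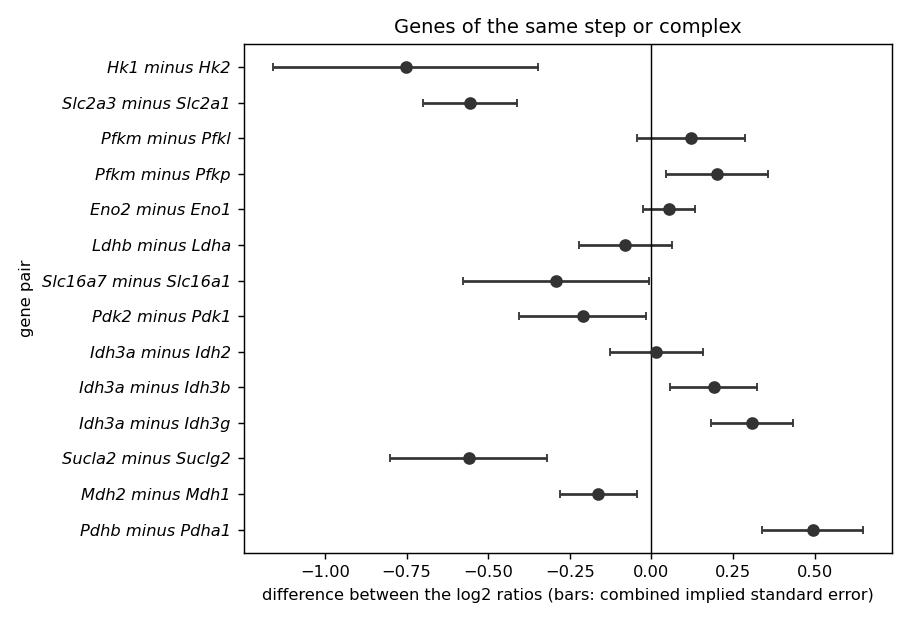
Differences between the log2 ratios of 14 pairs of genes that serve the same step or complex, with bars of 1 combined implied standard error. In 10 pairs the difference was under 2 errors, and the 4 others were Slc2a3 and Slc2a1, Pdhb and Pdha1, Idh3a and Idh3g, and Sucla2 and Suclg2.

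Further genes of these and neighbouring pathways were read from lists by pathway. Shares of calls in these lists and in the marker lists were not tested against the background. That background was 11.9% of all rows with status OK and 21.2% of rows with a mean of at least 10 FPKM. Of 24 further measured glycolysis and lactate genes, Pfkfb1 was called. It encodes a form of the enzyme that makes and breaks fructose 2,6-bisphosphate, was low, and rose from 0.336 to 2.75 FPKM (log2 ratio 3.03 ± 0.44, q = 2.01e-10 in the authors' deposited table) in a locus that held 3 rows. Aldoc, the aldolase of astrocytes (1212 and 1199 FPKM), Pkm2, the pyruvate kinase row (504 and 516 FPKM), and Bsg, the partner of lactate carriers (305 and 314 FPKM), were not called.

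Of 26 further genes of pyruvate use and the cycle, 4 were called. The succinate dehydrogenase subunit gene Sdha rose from 383 to 459 FPKM (log2 ratio 0.26 ± 0.07) and Brp44l, which encodes a subunit of the mitochondrial pyruvate carrier, from 84.2 to 111.0 FPKM (0.40 ± 0.09). The kinase gene Pdk3 rose from 5.57 to 9.88 FPKM (0.83 ± 0.21 on the log2 scale), against the direction of Pdk2. Acly, which makes cytosolic acetyl-CoA from citrate, fell from 154 to 134 FPKM (log2 ratio -0.20 ± 0.06). The succinate dehydrogenase genes Sdhb (97.1 and 115 FPKM) and Sdhc (63.5 and 64.7 FPKM) were not called.

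The pentose phosphate pathway, which branches from glycolysis and yields NADPH and ribose, had 3 calls among 10 measured genes. Prps1 rose from 31.4 to 41.9 FPKM and Rpe from 5.42 to 7.84 FPKM, and the transketolase gene Tkt fell from 135 to 113 FPKM. Taldo1 (56.5 and 61.3 FPKM), Pgd (20.3 and 22.6 FPKM) and G6pdx (9.28 and 9.58 FPKM) were not called. Of 18 genes of glycogen metabolism 2 were called: Ugp2, which makes UDP-glucose, rose from 12.7 to 29.0 FPKM (log2 ratio 1.19 ± 0.17) in a locus of 3 rows, and the phosphorylase kinase gene Phka2 fell from 20.2 to 14.5 FPKM. Pygb, Phkg2 and Phkb were not called. Among 10 genes of the shuttles that carry reducing equivalents into mitochondria, the oxoglutarate carrier gene Slc25a11 rose from 92.6 to 122 FPKM (0.39 ± 0.08 on the log2 scale). Got1, Slc25a12 and Got2, at 217, 137 and 75.2 FPKM after cocaine, were not called.

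Of 28 regulators of energy metabolism 7 were called (25%), 5 higher and 2 lower. The median level of the 28 was 11.0 FPKM, and 21.2% of all rows with a mean of at least 10 FPKM were called. Tfam, which maintains and transcribes the mitochondrial genome, rose from 6.21 to 10.9 FPKM (log2 ratio 0.81 ± 0.19). Of the hypoxia pathway, Epas1 (22.9 to 30.5 FPKM), the prolyl hydroxylase gene Egln1 (16.8 to 22.2 FPKM) and the ubiquitin ligase gene Vhl (17.9 to 23.5 FPKM) rose, and Arnt, the partner of HIF proteins, fell from 21.3 to 15.4 FPKM. Hif1a stood at 17.1 and 17.4 FPKM and was not called. The mitochondrial deacetylase gene Sirt3 rose from 30.2 to 37.8 FPKM, and the coactivator gene Ppargc1b fell from 3.67 to 2.16 FPKM. Its relative Ppargc1a, at 11.4 and 8.04 FPKM, missed the threshold at q = 0.0556 in the authors' deposited table. The AMP kinase subunit genes Prkag2 and Prkag1 and the hydroxylase gene Egln2 were not called.

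Over all genes, log2 ratios went down with transcript length. In the shortest quartile of 13671 genes (up to 1743 nt) the median log2 ratio was 0.15, in the next quartiles 0.07 and 0.01, and in the longest (from 4637 nt) -0.10. Spearman's rho between length and log2 ratio was -0.31 across the 40 genes and -0.30 across all genes, given as a description of values from the same libraries. Most of the 40 genes were short: 20 lay in the second quartile (1744 to 3114 nt), with a median log2 ratio of 0.12, and this quartile held 6 of the 7 higher calls and Pdk2 (2246 nt). In that quartile 9.21% of all genes were called higher and 2.48% lower. Slc2a1 (3260 nt) and Ogdh (4127 nt) lay in the third quartile. The part of length in the results was not tested.

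**Figure D5:**
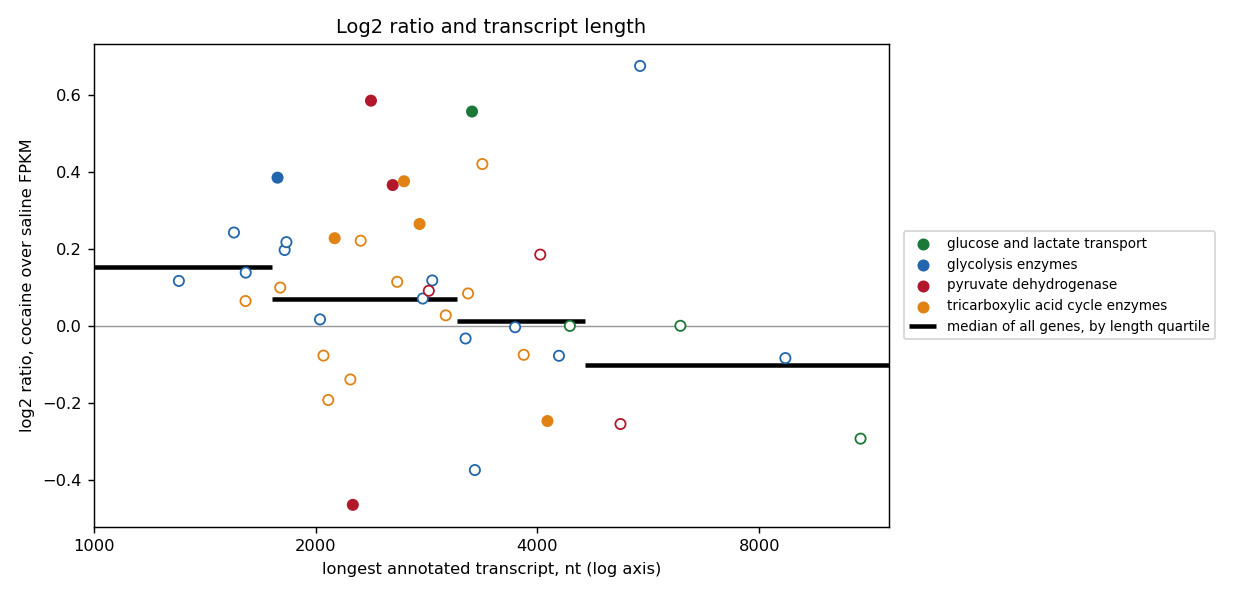
Log2 ratio of cocaine over saline FPKM against the longest annotated transcript (nt, log axis) for the 40 genes, filled where called, with black lines at the median of all genes in each quartile of length. The lines step down from 0.15 to -0.10.

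The labelled tissue was checked by markers. Of the 11 measured markers of striatal medium spiny neurons, the lowest stood at 57.9 FPKM on average, and Tac1 was called higher (159 to 198 FPKM) and Pde10a lower (206 to 167 FPKM). Of 8 measured general neuron markers 0 were called by Cuffdiff in the authors' deposited table (3 at an unadjusted p under 0.05). Their summed level went from 2113 to 2191 FPKM. The neuron markers include the glycolysis gene Eno2 (996 to 1046 FPKM), so this check is not independent of the results above. Astrocyte markers had 3 calls among 10, with Slc1a2 (426 to 258 FPKM) and Sox9 lower and Fgfr3 higher, and their summed level went from 754 to 593 FPKM. The fall of Slc1a2 alone was larger than that of the sum. Of the 10 astrocyte ratios 3 were above 0 and 7 below, with a median log2 ratio of -0.12. Oligodendrocyte markers had 3 calls among 10 (Mal higher, Cnp and Mbp lower), and their summed level went from 2347 to 2260 FPKM. Of the microglia markers Tmem119 was called higher (6.29 to 10.8 FPKM), and the summed level of the 10 went from 203 to 205 FPKM. Of 10 choroid plexus and ependyma markers 3 were called, all lower, led by Ttr (93.4 to 9.46 FPKM), and their summed level went from 145 to 50.9 FPKM. The part of these cell types in the results was not tested.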

How the data were processed

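RNA-seq of 6 pooled samples was used through 1 table of group values. CASAVA, TopHat and Cuffdiff were used on mm9 (NCBIM37), per the submitters' processing notes, with versions and parameters not given in the sources used here. The FPKM values were deposited by the authors as 1 value per group, a unit read from the table's Cuffdiff layout. The authors' deposited p-value was used to recompute the adjustment. The deposited q-value and test statistic are treated as a score, since q reached 1.12. The sign of the statistic was opposite to the log2 ratio in 100% of rows, so its size alone was used.

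Log2 ratios were computed without a pseudocount, using Python 3.11.15 and pandas 2.3.3. The planned fit to pools was not possible, and the authors' test took its place. Start positions were raised by 1, which made 21 of 21 mitochondrial genes with a locus to themselves match GENCODE. Near-identical copies were sought with minimap2 2.31-r1302 among GENCODE vM21 transcripts. Transcript length was the longest GENCODE transcript, found for 94.1% of genes with a mean of at least 1 FPKM. The arithmetic of ratios, calls and adjustment was checked on simulated group values with the same error for every gene. That check did not cover Cuffdiff itself or the spread between pools. The genes and lists were chosen with earlier results of these data known; all 40 genes were named, and of the other lists every called gene and the 3 most abundant uncalled ones. A few genes of those lists are not reported here. The letters AAGGTCA, the search for copies, transcript length and the genes Hif1a and Ppargc1a were added after the data were seen.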

Additional observations from a re-analysis of the deposited data

How the results depend on the processing

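No paired analysis was possible because the table holds 1 value per group, and for the same reason no pool could be left out. Of the 9 calls, 5 were in rows alone in their locus (Pgam1, Pdhb, Dld, Ogdh and Suclg1). At a q under 0.1 the count for glycolysis enzymes was 3 in place of 1, adding Tpi1 and Gapdh. For the cycle enzymes the count of 4 became 2 at a q under 0.01, 2 in rows alone in their locus and 1 (Fh1) with a minimum fold change added. Over all 40 genes it was 6 at a q under 0.01, 12 at a q under 0.1, 6 with that minimum and 9 with a recomputed adjustment or a mean of at least 5 FPKM. Centring on the median of all genes (0.03 on the log2 scale) turned the ratios of Slc2a3 (-0.027) and Eno1 (-0.010), which were not called. The median of the 40 genes lay between 0.06 and 0.10 under the 6 alternatives tried, and those of glycolysis and of the cycle stayed above 0. Copies added to Pgam1, an alternative chosen after seeing the data, gave 0.19. The precision that depth allows could not be judged.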
